A study of Drosophila melanogaster with 2 samples.

Results

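The proneural genes achaete (ac), scute (sc), lethal of scute (l(1)sc), asense (ase) and atonal (ato) are 5 of the 13865 protein-coding genes on the chromosome arms 2L, 2R, 3L, 3R and X of Drosophila melanogaster, and were chosen by name. Every region with a summit inside one of them or within 20 kb of it was taken from 4 deposited lists of CLAMP-GFP ChIP-seq regions. This gave 4 of the 3077 peaks of the optimal set, 26 of the 30000 regions of the pooled list, 22 of the 30000 of replicate 4 and 35 of the 30000 of replicate 2. Each of the 3077 optimal peaks was identical to a pooled region, so the optimal set and the pooled list are not separate observations. CLAMP, the product of Clamp (CG1832), is a zinc-finger factor of GA-rich DNA, best known for recruiting the dosage compensation complex to the X of males.

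The study had 1 group with 2 biological replicates, numbered 4 and 2, and no second condition. Both came from whole embryos of pooled sexes aged 0 to 24 h, of a single transgenic strain, CG1832-GFP, that carries GFP at the C-terminal end of CLAMP. The immunoprecipitation used an antibody against GFP on chromatin sonicated to 200 to 800 bp. No untagged line was analysed here, the labels do not say whether the strain also makes untagged CLAMP, and region lists carry no expression with which to check the labelled stage. In whole embryos, binding in a few cells and weak binding in many cannot be told apart. Read depth is unknown because the lists carry no read totals. The lists of the replicates and the pooled list hold background regions besides peaks, and the signal quoted below is the authors' own enrichment value, used only to rank regions within a list.

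Proneural genes encode basic helix-loop-helix (bHLH) transcription factors that give ectodermal cells the competence to become neural precursors. Their proteins pair with Daughterless and bind E-boxes, while Notch signalling between neighbouring cells restricts the fate to single cells through the Enhancer of split repressors. The 4 genes of the achaete-scute complex lie together near the tip of X, where enhancers spread between them are known to be shared by ac and sc. The gene ato lies alone on 3R.

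In dm6 ac (FBgn0000022) occupies X:370031-370947, sc (FBgn0004170) X:396060-397497, l(1)sc (FBgn0002561) X:409721-410817 and ase (FBgn0000137) X:460747-463176, and all 4 are transcribed from the plus strand. The gaps between them measured 25112, 12223 and 49929 bp. The minus-strand gene CG32816 (X:316576-470726) spans the whole complex, so the optimal summits near sc and ase are intronic by annotation although they lie between the proneural genes. The gene ato (FBgn0010433) occupies 3R:8278052-8279274, also on the plus strand. None of the 4 optimal summits fell inside a proneural gene.

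The genomic sequence around these summits is shown because the peaks differ in what they contain. Each line gives 201 bp centred on a summit, read 5′ to 3′ from the Release 6 genome. Capitals mark uninterrupted alternations of G and A of 8 bp or more, on either strand (GA runs, the kind of sequence CLAMP binds), and the motif CAGGTA on either strand (TACCTG on the strand shown). CAGGTA is the core of the site of the early zygotic activator Zelda, and it was looked for after the sc sequence had been seen.
sc start, optimal peak (X:395846-396046, dm6, plus strand): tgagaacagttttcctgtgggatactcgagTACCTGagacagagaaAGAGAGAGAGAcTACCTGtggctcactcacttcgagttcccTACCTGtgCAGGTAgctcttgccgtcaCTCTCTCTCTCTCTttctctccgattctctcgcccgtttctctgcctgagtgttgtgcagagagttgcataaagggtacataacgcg
ase upstream, optimal peak (X:457052-457252, dm6, plus strand): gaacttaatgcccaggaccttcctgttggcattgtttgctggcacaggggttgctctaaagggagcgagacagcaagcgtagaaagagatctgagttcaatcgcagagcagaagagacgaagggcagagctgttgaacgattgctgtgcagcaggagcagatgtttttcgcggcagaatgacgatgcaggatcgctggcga
ebo intron, optimal peak (X:472761-472961, dm6, plus strand): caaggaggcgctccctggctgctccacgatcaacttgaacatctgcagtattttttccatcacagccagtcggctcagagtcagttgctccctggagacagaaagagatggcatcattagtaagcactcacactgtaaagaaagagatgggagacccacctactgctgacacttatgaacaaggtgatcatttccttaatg
ato downstream, optimal peak (3R:8286070-8286270, dm6, plus strand): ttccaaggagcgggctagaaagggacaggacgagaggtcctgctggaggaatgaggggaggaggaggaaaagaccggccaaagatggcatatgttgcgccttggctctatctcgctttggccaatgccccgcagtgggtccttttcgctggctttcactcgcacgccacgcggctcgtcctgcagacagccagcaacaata
l(1)sc start, replicate 2 region (X:409447-409647, dm6, plus strand): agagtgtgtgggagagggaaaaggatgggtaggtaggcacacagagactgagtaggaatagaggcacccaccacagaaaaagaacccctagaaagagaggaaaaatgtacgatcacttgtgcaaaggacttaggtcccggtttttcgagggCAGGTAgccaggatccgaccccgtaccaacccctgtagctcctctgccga

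In the optimal set only sc had a CLAMP-GFP peak at its start. The peak, X:395741-396150 with its summit at 395946, lay 114 bp upstream of the sc TSS. Its signal was 136 and its rank 2704 of 3077, so it was among the weaker peaks of the optimal set, whose median signal was 273. Replicate 2 had a region with its summit 17 bp away, with a signal of 32.0 and rank 4621. Replicate 4 had no region within 200 bp, and its nearest one to sc was 59655 bp away. Of all optimal peaks on the arms 2458 of 3071 (80.0%) were found in both replicates and 427 in replicate 2 without replicate 4, and the sc peak belongs to the latter. Besides its proneural role sc is known as an X-linked signal element that embryos count to set their sex.

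The sc peak carried 2 GA runs, an 11 bp run 49 bp to the left of the summit and a 14 bp run 21 bp to its right, as capitals in the first sequence show. Its longest uninterrupted stretch of purines on either strand measured 22 bp. GA runs of at least 8 bp occurred in 34.4% of all optimal peaks and in 42.8% of those on X, and 10.4% of all had 2 or more. At least 14 bp was reached in 388 peaks, with a median signal of 309, and 21 of these (5.41%) had a lower signal than the sc peak. The 14 bp run (X:395960-395973) was the only GA run of 12 bp or more in the 133146 bp of the complex and its 20 kb flanks. Expressed per length this is 7.51 per Mb, against 31.3 per Mb (737 runs) on the whole X. The value for the complex rests on 1 run and was given no interval, so it does not show a shortage of GA runs.

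The window at sc also held 4 copies of CAGGTA, with centres 67, 39, 10 and 2 bp to the left of the summit, of which 3 read CAGGTAG. Among the 3071 optimal peaks 146 (4.75%) had at least 1 copy, 12 had at least 2, and the sc peak alone had 4. The longer motif CAGGTAG, which contains CAGGTA, was present in 46 of them. Gene starts were counted separately, from 250 bp before to 50 bp after each annotated start. There sc had the same 4 copies, since its 2 windows overlap, ac 1, l(1)sc 1, ato 2 and ase 0. Of all 13865 gene starts 865 (6.24%) had at least 1 copy, 20 had at least 3, and sc alone had 4. Such GA runs were present at 3.75% of gene starts and, among the proneural genes, at sc. CAGGTA was looked for after the sc sequence had been seen, so the standing of sc in these counts is description only. A motif match describes the sequence and does not show binding by any factor.

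The strongest peak of the complex lay upstream of ase, which is expressed in neural precursors rather than in proneural clusters. Its summit at X:457152, 3595 bp upstream of the ase TSS, had a signal of 379 and rank 1122 in the optimal set. Both replicates had a summit at the same base, with rank 1032 and a signal of 257 in replicate 4 and rank 1330 and a signal of 120 in replicate 2. The peak was narrow. It spanned 136 bp (X:457078-457213), a width that 114 of 3071 optimal peaks (3.71%) did not exceed, whereas 60.7% had the width of 410 bp. Its longest GA run measured 5 bp and it held no CAGGTA.

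The remaining peak of the X group, X:472656-473065 with its summit at 472861, lay in an intron of ebo, a neighbouring gene. It was 9685 bp beyond the end of ase and 2135 bp from the nearest TSS of CG32816. Its signal was 211 and its rank 1863. In replicate 2 the summit was displaced by 20 bp, with rank 1798 and a signal of 87.2. Replicate 4 had none within 200 bp, and its region nearby, at X:473572 in coding sequence of ebo, had rank 19760. The longest GA run was again 5 bp. Of the 3 X peaks, the one upstream of ase was thus found in both replicates, and those at sc and in ebo in replicate 2 only. Counted in the 3077 strongest regions of replicate 4 alone, the complex had 1 peak in place of 3.

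Neither ac nor l(1)sc had an optimal peak of its own. For ac, with sc a gene of external sense organs, the nearest optimal summit was that at sc, 24999 bp from its end and so outside the 20 kb limit. For l(1)sc, which acts in most embryonic neuroblasts, the same sc peak counted at 13775 bp. Replicate 2 did have a region at the start of l(1)sc. Its summit at X:409547 lay 174 bp upstream of the TSS and had a signal of 50.9 and rank 2842, above the 4621 of the sc region in the same list. No region of replicate 4, of the pooled list or of the optimal set lay within 200 bp of it. Its sequence, the last of those shown, had a GC content of 52.7%, a longest GA run of 6 bp and 1 CAGGTA. Among the regions near the 5 genes that ranked within the first 3077 of a replicate, it was the only one without an optimal peak. At ac the strongest of 9 regions in replicate 2 had a signal of 27.5 and rank 6272, at X:360882 in coding sequence of the pigmentation gene y, 9149 bp from the ac TSS.

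**Figure D1:**
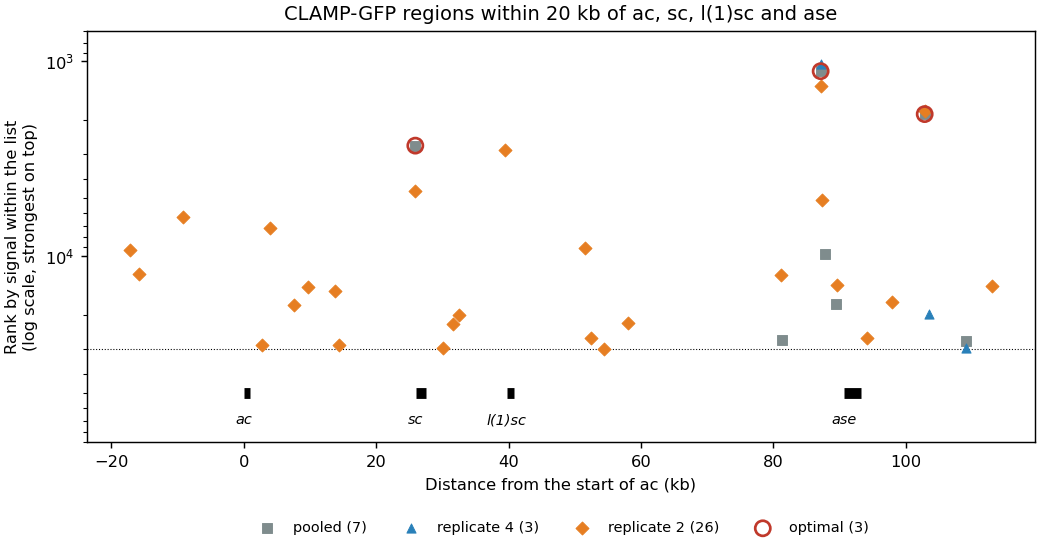
Regions within 20 kb of ac, sc, l(1)sc and ase, placed by distance from the ac start in kb (x axis) and by rank within their own list on a log scale (y axis, strongest on top), with 1 symbol per list, the genes as black bars and a dotted line at rank 30000. Replicate 2 has 26 regions spread over the complex, replicate 4 has 3, all to the right of the centre, and the 3 optimal peaks have ranks 1122, 1863 and 2704.

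The complex differed in the number of regions by list. Replicate 2 had 9 regions within 20 kb of each of ac, sc and l(1)sc and 8 within 20 kb of ase, against a median of 9 over the protein-coding genes of X. Replicate 4 had 0, 0, 0 and 3, against a median of 13. The pooled list had 0, 1, 1 and 6, against a median of 12. Of all 13865 genes 97.6% had a pooled region within 20 kb, and ac was among the 60 of 2196 X genes (2.73%) that had none. In replicate 4 the genes of X with no region within 20 kb numbered 80 (3.64%), among them ac, sc and l(1)sc, whose windows overlap and are not separate observations. In the optimal set 57.8% of all genes and 69.9% of those on X had a peak within 20 kb, and 4 of the 5 proneural genes did. This share is not told apart from the background with 5 genes, 2 of which share their peak.

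**Figure D2:**
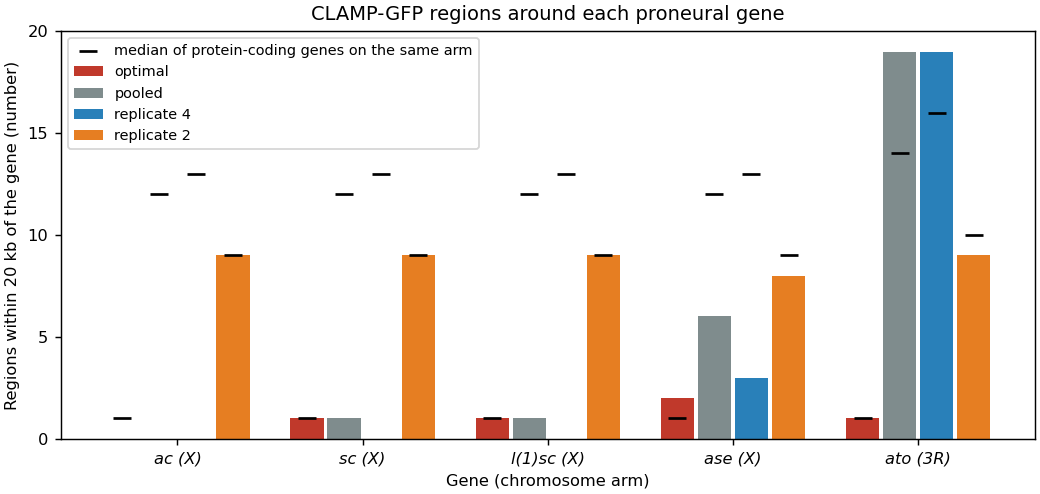
Number of regions within 20 kb of each proneural gene (y axis) in the 4 lists (bars), with the median over all protein-coding genes of the same arm as a black dash. For ac, sc and l(1)sc the bars of replicate 2 reach the X median of 9 and those of replicate 4 are at 0, against a median of 13, and for ato the pooled list and replicate 4 each reach 19.

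The stretch without a region of replicate 4 reached far beyond the complex. It ran from X:54314 to the ase peak at X:457152, or 403 kb. Among the 4904 gaps between neighbouring summits of replicate 4 on X, whose median was 2.01 kb, it was number 2 in length. Inside it lay the optimal peak at X:276242, with a signal of 992.7 against a median of 273.2 over all optimal peaks. Replicate 4 thus lacked a region also at a strong optimal peak outside the complex. The cause of this stretch was not tested. In the pooled list and the optimal set, whose peaks are all pooled regions, the longest gap that overlapped the span from ac to ase was the same. It ran from X:276242 to the sc peak, 120 kb. It was number 4 of 4844 gaps in the pooled list and number 31 of 789 in the optimal set. In replicate 2 the longest such gap measured 23.1 kb, from X:428086 to X:451216 between l(1)sc and ase. That gap was number 63 of 4734 in replicate 2, whose median was 2.93 kb. Within the complex the optimal summits at sc and ase were 61.2 kb apart, longer than 86.1% of optimal gaps on X, and those at ase and in ebo 15.7 kb apart, close to the median of 11.7 kb.

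Per length, the complex with its flanks held 22.5 optimal peaks per Mb (exact Poisson 95% interval 4.65 to 65.9, counting error only), and the whole X 33.6 per Mb (31.3 to 36.0). The interval covers the X value. The pooled list had 52.6 per Mb (21.1 to 108), against 206 on X. Replicate 4 had 22.5 per Mb, against 208 on X. Both of those intervals stayed below the X value, while replicate 2, with 195 per Mb (128 to 286), was near its X value of 201. Most of the complex lay in the 403 kb stretch without a region of replicate 4, and a Poisson interval does not allow for such a stretch. The pooled list was made from both alignments, so the pooled list and replicate 4 are not separate observations. The Enhancer of split complex, the Notch-dependent repressor genes that act against proneural activity, held 10 optimal peaks or 120 per Mb (57.5 to 221), and the Iroquois complex, whose products activate ac and sc, held 7 or 41.3 per Mb (16.6 to 85.1). In the optimal set the Poisson intervals of these complexes and of the achaete-scute complex overlap. In the pooled list and in replicate 4 the intervals of the Enhancer of split and Iroquois complexes stayed above the achaete-scute interval, with the same limits. The pooled list had 600 per Mb (445 to 791) at the Enhancer of split complex and 348 (265 to 449) at the Iroquois complex. Replicate 4 had 672 (507 to 872) and 360 (275 to 462). In replicate 2 the values were 480 (343 to 653) and 372 (285.5 to 475). There only the Iroquois interval reached that of the achaete-scute complex (127.6 to 286.1).

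Over the genes of X, base composition moved with the counts of replicate 4 and not with those of replicate 2. The window of 20 kb around ac had a GC content of 38.2%, that of sc 38.9%, that of l(1)sc 39.5% and that of ase 42.6%. Grouping by GC content was added after the counts had been seen. The 231 X genes with a window under 40% GC, ac, sc and l(1)sc among them, had a median of 2 regions in replicate 4. Of these genes 70 (30.3%) had none, whereas the 780 with 45% or more had a median of 19. In replicate 2 the medians were 9 and 8. For ase, the 1185 X genes with 40 to 45% had a median of 11 regions in replicate 4, against the 3 observed. Over all arms the median GC content was 55.2% for regions of replicate 4 and 45.8% for those of replicate 2, and the 26 regions of replicate 2 at the complex had a median of 44.3%. Only 1 of those 26 (3.85%) was found in replicate 4, against 26.9% of all regions of replicate 2. Most of the 26 lay in the stretch where replicate 4 had no region, so this share largely restates that gap. The part of base composition in the result was not tested.

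Around ato, the proneural gene of chordotonal organs and photoreceptor founders, the picture differed. Its optimal peak, 3R:8285965-8286374 with its summit at 8286170, lay 6896 bp past the end of the gene, in intergenic DNA 999 bp from the TSS of lncRNA:CR44318. The signal was 221 and the rank 1809. Replicate 4 had its summit at the same base, with rank 1583 and a signal of 154, and replicate 2 had it 2 bp away, with rank 2243 and a signal of 67.0. Regulatory DNA of ato is known on both sides of the gene. The peak had a GC content of 58.7%, against a median of 51.2% over all optimal peaks, a longest GA run of 5 bp, a purine stretch of 21 bp and no CAGGTA. The 20 kb around ato held no GA run as long as 12 bp. The next optimal peak was just outside the limit, 21609 bp beyond the gene at the start of CG9626, with a signal of 169 and rank 2220.

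Most regions at ato were weak. The pooled list and replicate 4 each held 19 within 20 kb, or 461 per Mb (278 to 720), against 238 and 247 per Mb on 3R. Counted per gene, the medians on 3R were 14 and 16, and 20.7% and 31.0% of the 3421 genes there had more regions than ato. Replicate 2 held 9, or 218 per Mb, against 220 on 3R and a median of 10 per gene. The region next in rank after the optimal peak lay in coding sequence of CG11672, at 8289870, with rank 4482 in the pooled list and 3330 in replicate 4 but 28486 in replicate 2. Inside ato itself the pooled list had 2 regions in the coding sequence, at 8278272 (signal 51.3, rank 27378) and 8278743 (signal 59.6, rank 19688). Replicate 4 had both, with ranks 21644 and 24596, and replicate 2 had neither. A further pooled region 4198 bp downstream of the ato start, at 8282250, had a GA run of 8 bp and 1 CAGGTA but rank 10405, and replicate 2 lacked it. Of the 19 pooled regions 17 were found in replicate 4 and 4 in replicate 2, against 75.6% and 39.4% of all pooled regions. The GC content of the window was 45.7%.

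**Figure D3:**
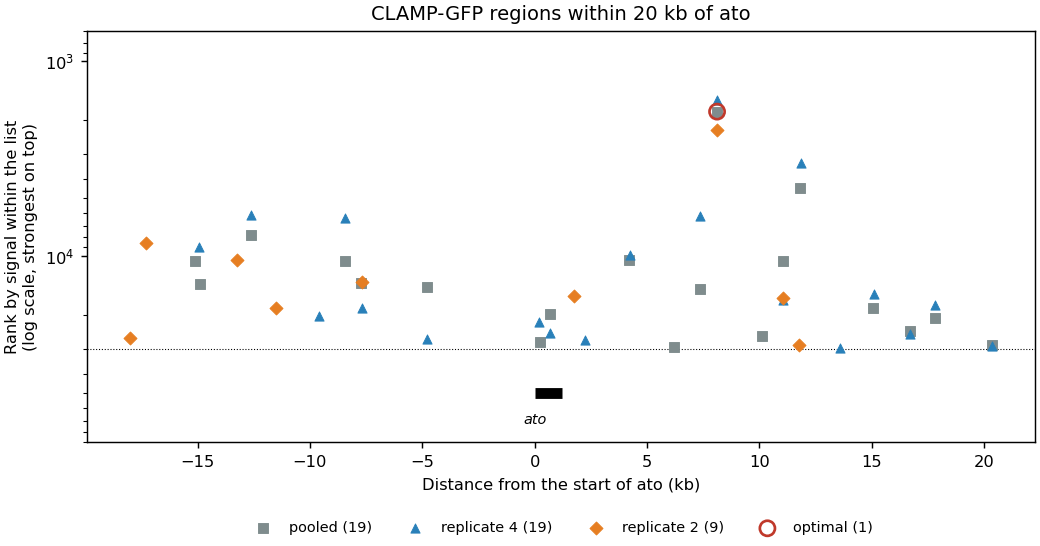
Regions within 20 kb of ato, placed by distance from the ato start in kb (x axis) and by rank within their own list on a log scale (y axis, strongest on top), with 1 symbol per list, the gene as a black bar and a dotted line at rank 30000. The optimal peak about 8118 bp downstream has ranks 1809, 1583 and 2243 in the optimal set, replicate 4 and replicate 2, and the regions inside ato rank 19688 or lower in the pooled list.

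The 4 optimal peaks spanned ranks 1122 to 2704. The order by signal was the peak upstream of ase (379), the peak downstream of ato (221), the one in ebo (211) and the one at sc (136). The neighbours in the middle are not told apart, since replicate 2 ranked the peak in ebo (1798) above that of ato (2243). Neither E-box CAGCTG, found in 14.5% of all optimal peaks, nor CAGGTG, found in 9.67%, occurred in any of the 4 windows on either strand. The GAGA factor motif GAGAG, which overlaps GA runs, occurred at 11 places in the sc window, 1 place in the ato window and not in the others, and was present in 74.3% of all optimal peaks. Likeness of other peaks was measured as the sum of absolute log2 rank differences over the optimal set, replicate 4 and replicate 2, among 2457 optimal peaks with all ranks. By nearest TSS, the peaks most like that upstream of ase were assigned to 14-3-3epsilon (likeness 0.045, signal 383) and Antp (0.080, signal 371), with an unnamed X feature between them (0.072). For ato they were assigned to lncRNA:CR45627 (0.035, signal 222), sala (0.051, signal 224) and Dll (0.078, signal 221).

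**Figure D4:**
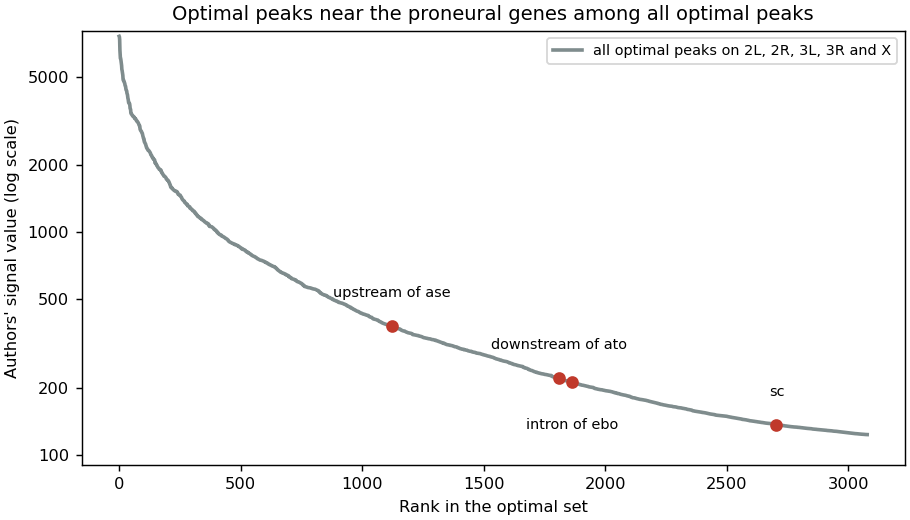
Signal of every optimal peak on 2L, 2R, 3L, 3R and X (grey line, y axis, log scale) by rank in the optimal set (x axis), with the 4 peaks near the proneural genes as red points. The peak upstream of ase, with a signal of 379, lies above the median of 273, and those of ato, ebo and sc lie below it.

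The genes around the proneural step were counted by role, in 5 lists of 72 genes. A summit of the optimal set lay 1 kb or less from a TSS at 10.3% of all protein-coding genes and at 1 of the 5 proneural genes, sc. Of the 15 upstream regulators 12 had one (80.0%), and 14 had one within 20 kb. Their median number of peaks within 20 kb was 3, against 1 over all protein-coding genes, of which 42.2% had none. The highest signals were at the Sox gene D (4878, also known as Dichaete), the Iroquois gene caup (4580) and the LIM-homeobox gene tup (4445). Others with a peak were Dr (3237.5), mirr (3130), pnr (1933), eya (1859), so (1785), SoxN (1774), ush (1273), vnd (958) and ara (743). These regulators include the activators of sc and ac in the imaginal discs (ara, caup, pnr) and of proneural genes in the embryonic neuroectoderm (vnd, SoxN, D). Chi and ind had no peak at a TSS, and ey lies on chromosome 4, outside the arms counted.

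Of the 3 partners and inhibitors, h, which represses ac, had a peak at a TSS with a signal of 130, near the bottom of the optimal set at rank 2850. The inhibitor emc had 2 peaks within 20 kb and none at a TSS, and da, which encodes the partner Daughterless, had none within 20 kb. Notch lateral inhibition genes had a peak at a TSS in 7 of 21 (33.3%), against 10.3% of all genes. Within 20 kb 18 had one, against 57.8% of all genes, with a median of 5 peaks against 1. Among them E(spl)mbeta-HLH had a signal of 1127, E(spl)malpha-BFM 1047, E(spl)m8-HLH 986, the receptor gene N 779 and mam, which encodes a coactivator of Notch, 1535. The ligand gene Dl had 2 peaks within 20 kb and none at a TSS. Of these genes 11 belong to the Enhancer of split complex and share peaks, so they are not separate observations.

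Genes that act after the proneural step had a peak at a TSS in 8 of 17 (47.1%), against 10.3% of all genes. The highest signals were at insc (902) and mira (859), which act in asymmetric division of neuroblasts, and at brat (841), which limits neuroblast self-renewal. phyl, a target of proneural proteins in sense organ precursors, had 739. Within 20 kb, 12 of the 17 (70.6%) had an optimal peak, against 57.8% of all genes, with a median of 2. The proneural targets sens, wor and dpn were among the 5 that had none. The other tissue-specific bHLH genes had a peak at a TSS in 4 of 16 (25%), against the same 10.3%. They were twi (971), Oli (534), cato, a relative of ato (331), and HLH54F (207). Of these 16 genes 7 (43.8%) had a peak within 20 kb and the median was 0, against 1 over all genes, and amos, another proneural gene, had none. Over the 5 lists 32 of 72 genes (44.4%) had a peak at a TSS, against 10.3% of all genes. The lists were not tested, and whole lists of developmental genes were known to be rich in peaks when they were drawn up.

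**Figure D5:**
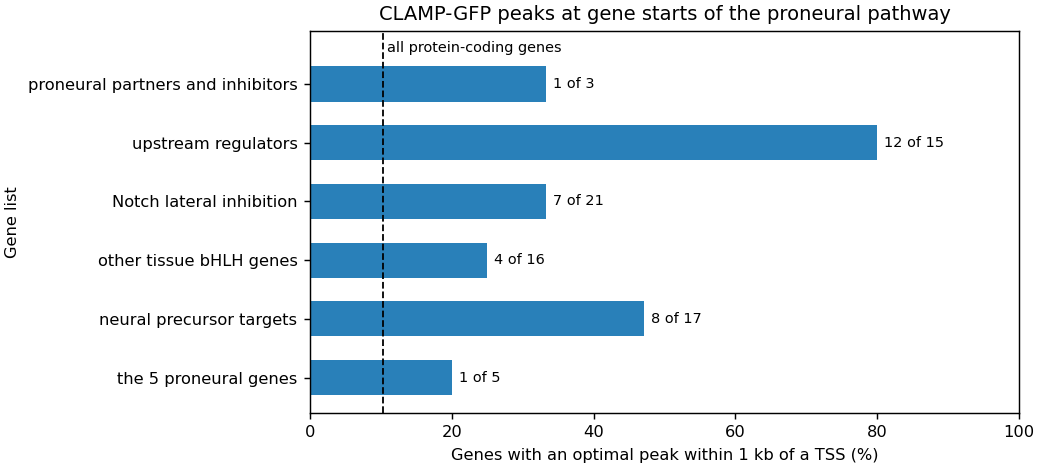
Share of genes that have a TSS 1 kb or less from an optimal summit (x axis, percent) in each list of the proneural pathway (rows, with the number of genes), and the share of all protein-coding genes, 10.3%, as a dashed line. The upstream regulators reach 80.0% (12 of 15), while 1 of the 5 proneural genes, sc, has such a peak.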

How the data were processed

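CLAMP-GFP ChIP-seq regions were read from 4 deposited dm6 lists: optimal, pooled, replicate 4 and replicate 2. According to the deposited text files, the list of a replicate came from its alignment and 1 control file, the pooled list from both alignments and that control, and the optimal set from an irreproducible discovery rate step. No source used here names the aligner, the caller or the threshold. The signal of a region is the authors' enrichment value, and whether it was scaled to depth is not given. The dm3 lists were not used.

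Summits were compared with the BDGP 6.54 annotation (Ensembl release 115) and the Release 6 sequence. A TSS was the start of a protein-coding or ncRNA transcript. Regions of different lists were matched when summits lay within 200 bp. GA runs and motifs were counted within 100 bp of a summit. With 1 group there was no test between conditions. Counts stand beside the share over all genes, and densities of peaks and regions have exact Poisson 95% intervals. Functions were tested on simulated peaks and sequences. The 5 proneural genes, the 5 gene lists and the alternatives were chosen with earlier results of these data known. In the lists, h and Dl were matched to the annotation by gene ID. Genes named are the 5 members, genes holding or nearest to their optimal peaks, up to 3 genes a list with the highest signal at a TSS, and those of the 3 most alike peaks; the other list genes and neighbours were named after their values were seen. Python 3.11.15, numpy 2.4.6, pandas 2.3.3 and scipy 1.17.1 were used.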

Additional observations from a re-analysis of the deposited data

How the results depend on the processing

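Of 33 values recomputed under an alternative, 27 stayed within 1.5 times or within their interval and 6 moved. The count of 3 optimal peaks near ac, sc, l(1)sc or ase became 1 in the stronger 1538 peaks of the optimal set and ranged from 1 to 3 when a replicate was left out. The 3 without replicate 4 are those upstream of ase, in ebo and at the start of l(1)sc, and the sc region is not among them. The count of 1 near ato became 0 within 5 kb of the gene and 0 in the stronger 1538 peaks. The rank of 2704 of the peak shared by sc and l(1)sc was 4621 without replicate 4, which is counted once for each gene among the 6. Without replicate 2 there was no region to rank, and this case is not among the 33. The density of the complex, 22.5 per Mb, was 7.51 per Mb in the stronger 1538 peaks and without replicate 2. This is within the Poisson interval of the main value (4.65 to 65.9). That interval is so wide that the same fall from 3 peaks to 1, counted above as moved, stays within it. The ranks near ase (1032 to 1330) and ato (1583 to 2243), the 2 peaks found in both replicates, the 1 peak with a GA run and the 32 list genes (27 to 35) kept within those limits under every alternative run for them. The cause of the moves was not tested. No signal within 1 kb of a TSS could be given for l(1)sc, ase or ato, which have no optimal peak there. No paired analysis was possible because there was 1 group. With 2 replicates and no read totals, the lists cannot show whether a region missing from one replicate was unbound or below that list's end.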

Other observations

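Outside the proneural genes, the neighbours of the complex also differed by list. The pooled list and replicate 4 shared a weak region near the start of CG32817, at X:479026 (rank 27046) and X:479063 (rank 29359). An annotated start of CG32816 that lies inside the gene had a region of replicate 2 alone, at X:428086 with rank 22040. Close to the ase peak, replicate 2 had a separate region at X:457353 with rank 5160, and the pooled list had one at X:457784 with rank 9718 that neither replicate's list held within 200 bp. Near ato, both replicates had a region 5′ of CG9630, at 8270368 in replicate 4 (rank 18403) and 8270382 in replicate 2 (rank 13508).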
